A study of Mus musculus with 47 samples.

Results

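The genes of MHC class I antigen processing and the immunoproteasome were followed through treatment-induced senescence of mouse B cell lymphoma. The members were chosen by name: B2m, Tap1, Tap2, Tapbp, Psmb8, Psmb9, Psmb10, Psme1, Psme2 and Erap1. A probe set counted for a gene when the array platform's annotation gave it exactly that symbol, and the brightest such probe set stood for the gene. This gave 9 of the 10 members, among 18194 genes measured in all. The probe set for Psme2 also names Psme2b, so Psme2 was not analysed here. Together the 9 genes have 16 probe sets, and the dimmer ones served as a check.

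MHC class I molecules display peptides from inside a cell to CD8 T cells. Proteasomes cut cytosolic proteins into peptides, the TAP transporter moves the peptides into the endoplasmic reticulum, and an aminopeptidase trims them there before they bind a heavy chain paired with beta-2 microglobulin. Interferon gamma induces catalytic subunits that replace the constitutive ones and so form the immunoproteasome, and it raises an activator ring that opens the proteasome. The transcriptional regulator Nlrc5 acts on many class I genes. B lineage cells carry class I and express immunoproteasome subunits without added interferon.

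RNA levels were measured on 47 arrays from 22 cultures of primary lymphoma cells. All groups shared an Eµ-myc transgene, which drives Myc in the B lineage, a retroviral Bcl2 that blocks apoptosis, puromycin selection for 48 h and growth on NIH 3T3 mouse fibroblasts irradiated with 20 Gy. The WT lymphomas (14 cultures) had Suv39h1, a histone H3K9 methyltransferase, and the Suv39h1- lymphomas (5 cultures) were deficient for it. Both were measured native, that is untreated, and after 5 days of Adriamycin (ADR, doxorubicin, a DNA-damaging drug) at 0.05 µg/ml. A further 3 cultures, called Suv39h1ER here, were Suv39h1- with an added Suv39h1ER, a fusion that depends on the ligand 4-hydroxytamoxifen (4OHT), whose dose the labels do not state. Each of these had an untreated array, an array with ADR alone and an array with ADR plus 4OHT. The labels mark the WT ADR and the Suv39h1ER ADR 4OHT arrays as senescent and the remaining arrays as non-senescent. The ages of the animals are not given in the sources used here.

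All values are deposited log2 levels. Array medians lay between 4.32 and 4.43, except for Suv39h1- lymphoma 1032 under ADR at 4.07. Over the 200 genes that best separated WT lymphomas, arrays of 2949, 5043, 5766 and 6054 correlated across labels at a median r of 0.63, against 0.79 for both arrays of 1 lymphoma and -0.13 for other pairs of labels. For Suv39h1- lymphomas 7890 and 9250 the corresponding medians were 0.23, 0.97 and -0.29. The genes were picked to differ between lymphomas, so a high r within 1 lymphoma follows from the choice. Single other pairs of WT arrays reached 0.74, and 7890 and 9250 were far less alike than arrays of 1 lymphoma. Whether lymphomas of a set, called alike below, share an origin was not tested. The member calls that change, and the relations and pairs of members over WT lymphomas, are also given with each set counted once, by leaving out 5043, 5766, 6054 and, where Suv39h1- lymphomas enter, 9250. The cultures SuvER-4936 and SuvER-5043 share their numbers with a Suv39h1- and a WT lymphoma, and the labels do not say whether they come from the same animals. Of the B lineage markers 7 of 8 were measured, with array means of 7.10 to 9.81. The labels do not say that cultures were repeated, so replicates are lymphomas. Treatment changes were tested in 1 fit of all 47 arrays, with 1 residual spread per gene pooled over the genotypes. Their p-values and 95% intervals therefore do not measure the spread among the Suv39h1- or the Suv39h1ER cultures alone. For Psme1 from native to ADR, for example, the Suv39h1ER changes had an SD of 0.032 (n = 3) but an SE of 0.154. Genotype p-values measure the spread between lymphomas within a treatment.

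Among the members, 4 lie within 34.3 kb of the mouse MHC region on chromosome 17 (GRCm38.p6): Psmb9 (34182030 to 34187330), Tap1 (34187556 to 34197225), Psmb8 (34198195 to 34201454) and Tap2 (34204479 to 34216321). Tapbp lies on the same chromosome at 33919478 to 33929290. B2m is on chromosome 2, Psmb10 on chromosome 8, Erap1 on chromosome 13 and Psme1 on chromosome 14. Psmb9 and Tap1 are transcribed away from each other from a shared intergenic stretch of 225 bases. That stretch is shown because both genes start from it, and the 250 bases before B2m and before Psmb8 because one rose and the other fell. Capitals mark matches to the motifs named after the sequences.
Psmb9 to Tap1, chr17:34187331-34187555, plus strand: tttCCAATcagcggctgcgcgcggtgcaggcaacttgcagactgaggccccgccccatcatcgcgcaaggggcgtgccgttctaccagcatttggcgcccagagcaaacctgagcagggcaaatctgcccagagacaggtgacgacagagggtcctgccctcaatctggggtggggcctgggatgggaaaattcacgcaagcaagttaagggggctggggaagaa
B2m, chr2:122147437-122147686, plus strand: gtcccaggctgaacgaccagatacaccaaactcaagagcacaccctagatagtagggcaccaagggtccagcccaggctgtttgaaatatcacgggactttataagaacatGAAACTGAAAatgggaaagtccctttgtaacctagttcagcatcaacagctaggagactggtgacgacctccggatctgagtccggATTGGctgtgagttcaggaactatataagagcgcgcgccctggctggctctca
Psmb8, chr17:34197945-34198194, plus strand: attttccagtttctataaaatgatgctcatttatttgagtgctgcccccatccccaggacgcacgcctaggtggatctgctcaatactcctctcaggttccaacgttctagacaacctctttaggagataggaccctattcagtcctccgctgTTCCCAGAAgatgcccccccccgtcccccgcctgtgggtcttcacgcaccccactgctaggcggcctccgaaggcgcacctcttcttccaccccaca
These sequences are from RefSeq promoters of GRCm38.p6, which held 9 of the 10 members, Psme2 included. Tap2 had no entry there and was not searched. Both strands of the 250 bases before each start were searched. The interferon-stimulated response element core (GAAA, any 2 bases, GAAA) was present in 2.98% of 32851 promoters and, among the members, in B2m, as GAAACTGAAA 139 to 130 bases before the start. The gamma-activated site TTCNNNGAA was present in 7.02% of promoters and in Psmb8, as TTCCCAGAA 97 to 89 bases before the start. The CCAAT box was present in 33.8% of promoters and in B2m, Tap1, Tapbp and Psmb9. The Tap1 and Psmb9 matches are the same bases of their shared stretch. The CRE TGACGTCA was present in 1.55% of promoters and in no member searched. These are matches of letters and were not tested as sites.

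The 7 group means of each member were put in order. Neighbours in that order differed by no more than the larger SD of both groups, except for B2m in WT ADR over WT native. The highest and the lowest group of a member differed by more than the larger SD for 6 of 9 members. These ends were picked per gene, and the share over all genes was not computed, so the count is not a result about the members. Tapbp, for example, was at 10.17 ± 0.35 (SD, n = 14) in WT ADR and 9.30 ± 0.11 (SD, n = 3) in Suv39h1ER ADR. B2m, the light chain of every class I molecule, was at 12.83 ± 0.23 (SD, n = 14) in WT native and 13.11 ± 0.20 (SD, n = 14) in WT ADR. It was at 12.53 ± 0.49 (SD, n = 5) in Suv39h1- native and 12.55 ± 0.57 (SD, n = 5) in Suv39h1- ADR. Tap1, a TAP transporter subunit, had its widest spread in the Suv39h1- lymphomas, where native levels ran from 6.74 to 9.37. Psmb9 ran there from 8.07 to 9.77. Lymphomas 5783 and 1032 were the highest of the Suv39h1- lymphomas for both genes, and 9250 and 4936 the lowest, under native conditions.

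**Figure D1:**
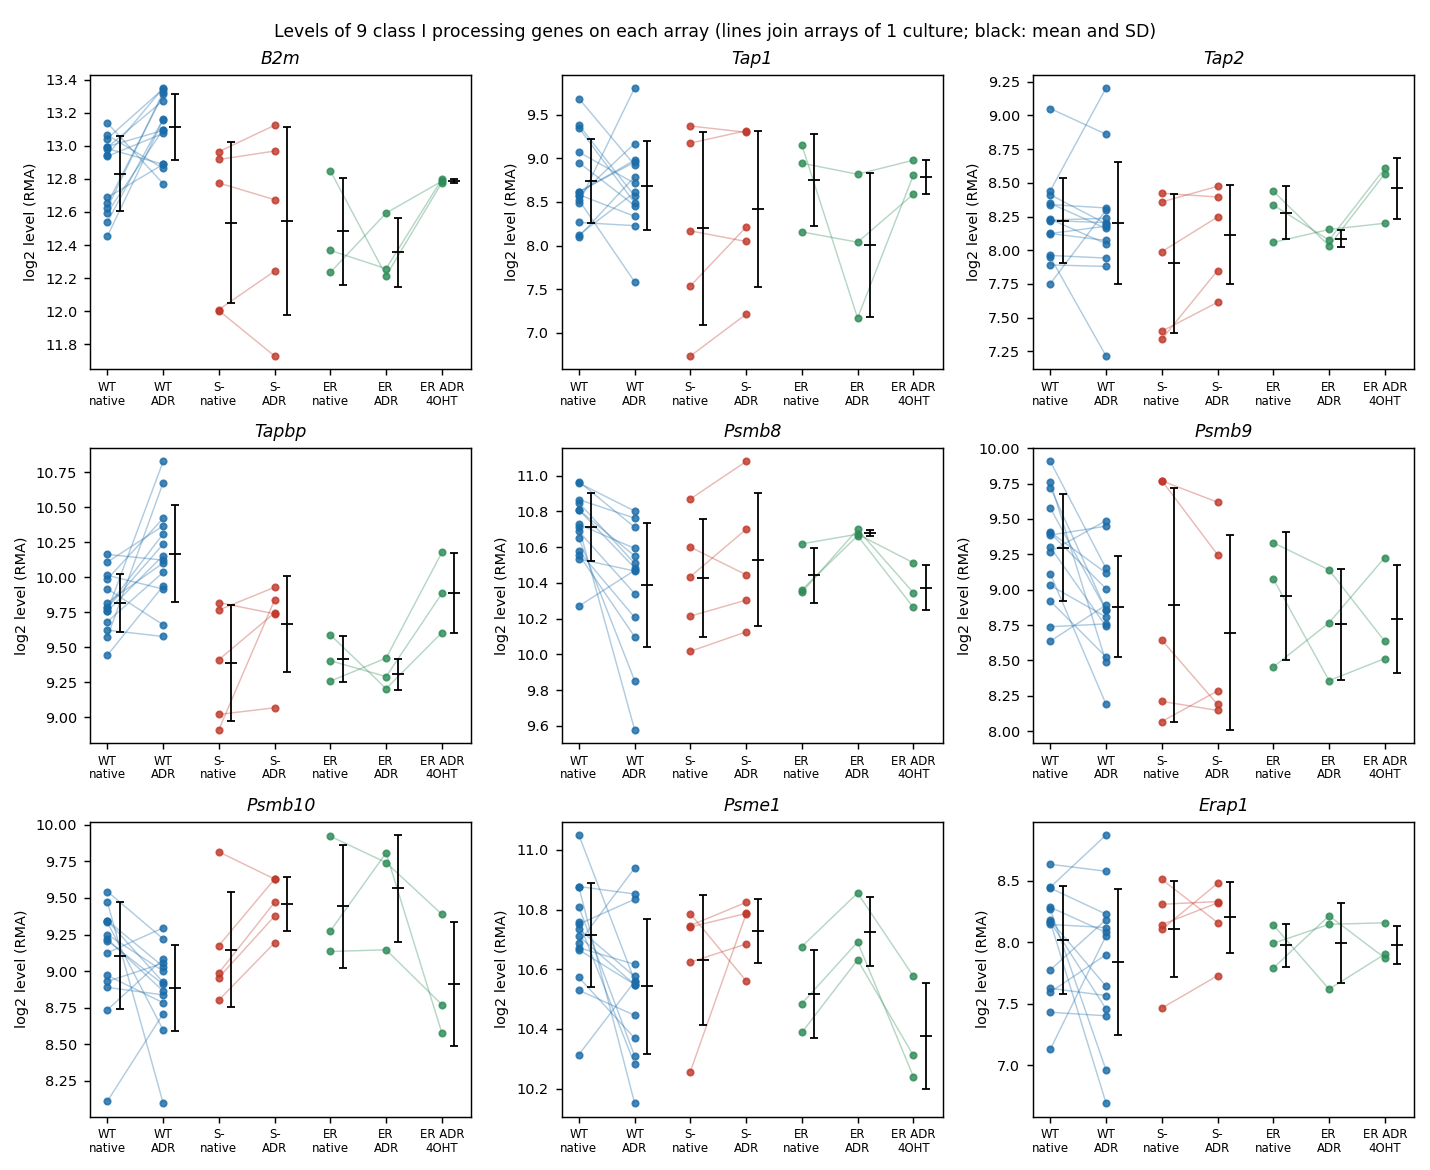
Deposited log2 level (y axis) of each member on every array in the 7 groups (x axis, S- for Suv39h1- and ER for Suv39h1ER), with lines joining arrays of 1 culture and black marks for the mean and SD. B2m and Tapbp are higher and Psmb8 and Psmb9 lower in WT ADR than in WT native, with overlapping groups, and the Suv39h1- arrays spread most for Tap1 and Psmb9.

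The first question was how the pathway changed when WT lymphomas entered senescence under ADR. B2m and Tapbp rose, and the immunoproteasome subunits Psmb8 and Psmb9 fell, all by less than 1.5-fold. Thus 4 of 9 members passed the test, 2 in each direction. This is to be read against 30.2% of all genes, of which 16.1% were higher and 14.1% lower. The median member change was -0.17, beside -0.00 over all genes. All p-values here and below are from limma, adjusted by Benjamini-Hochberg over all 18194 genes, with a threshold of 0.05.

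Of the components that bind and load peptide, B2m ran from 12.45 to 13.14 (median 12.94) in WT native and from 12.77 to 13.35 (median 13.13) in WT ADR. The groups overlapped, and B2m was higher under ADR in 11 of 14 lymphomas. The log2 change was 0.28 (SE 0.09, adjusted p = 0.014), a 1.22-fold rise. Its other probe set gave 0.27. Tapbp, or tapasin, which holds the empty class I molecule at the transporter, ran from 9.44 to 10.16 (median 9.78) in WT native and from 9.58 to 10.83 (median 10.14) under ADR. The groups overlapped here too, and the highest ADR arrays lay above every native one. Tapbp was higher in 10 of 14 lymphomas, by 0.35 (SE 0.10, adjusted p = 0.0084), or 1.28-fold. Its dimmer probe set showed no such rise, with a change of -0.00 (adjusted p over all probe sets = 0.997), and the mean of both gave 0.18 (adjusted p = 0.199).

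Of the inducible catalytic subunits, Psmb8, the beta5i subunit, ran from 10.27 to 10.97 (median 10.72) in WT native and from 9.58 to 10.80 (median 10.48) under ADR. It was lower under ADR in 13 of 14 lymphomas, all except 2581. The change was -0.32 (SE 0.07, adjusted p = 0.0013), or 0.80-fold. A second and much dimmer Psmb8 probe set gave -0.17 (adjusted p over all probe sets = 0.204). Psmb9, the beta1i subunit, ran from 8.64 to 9.91 (median 9.34) in WT native and from 8.19 to 9.49 (median 8.86) under ADR, and was lower in 10 of 14 lymphomas. The change was -0.42 (SE 0.12, adjusted p = 0.0098), or 0.75-fold. Both pairs of groups overlapped. Psmb10, the beta2i subunit, ran from 8.11 to 9.54 (median 9.21) and from 8.10 to 9.30 (median 8.92). Its change of -0.22 (SE 0.11, adjusted p = 0.15) did not pass, although it was negative in 10 of 14 lymphomas.

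Psme1, the alpha subunit of the PA28 activator ring, ran from 10.31 to 11.05 (median 10.72) in WT native and from 10.15 to 10.94 (median 10.55) under ADR. Its change of -0.17 (SE 0.07, adjusted p = 0.071) did not pass with all lymphomas. It passed without 1570 (adjusted p = 0.031) or without 2949 (adjusted p = 0.030), and Psmb10 passed without 2949 (-0.28, adjusted p = 0.047).

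The peptide transporter and the trimming enzyme did not pass. Tap1 ran from 8.10 to 9.68 (median 8.60) in WT native and from 7.59 to 9.80 (median 8.66) under ADR, with a change of -0.05 (SE 0.17, adjusted p = 0.88). Individual Tap1 changes ran from -0.94 in lymphoma 403 to 1.32 in 1570, so the small mean covered large changes in both directions. A dimmer Tap1 probe set, at a mean level of 4.13 beside 8.59 for the brightest, gave -0.41 (adjusted p over all probe sets = 0.0092). The remaining Tap1 probe sets, at mean levels of 2.79 and 2.46, gave -0.004 and 0.06. All the dimmer Tap1 probe sets lie near or below the array medians of 4.07 to 4.43, and signal over background was not assessed. The Tap1 probe sets thus differed, but the dimmer ones cannot show whether the brightest one is right. Tap2, the other TAP subunit, changed by -0.02 (SE 0.08, adjusted p = 0.91), with 7.75 to 9.05 in native and 7.21 to 9.20 in ADR. Erap1, the aminopeptidase, changed by -0.18 (SE 0.14, adjusted p = 0.39), with 7.13 to 8.63 in native and 6.69 to 8.87 in ADR.

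The calls depended on the pairing. Without the culture as a block, 2 members passed, Tapbp and Psmb8, while B2m (adjusted p = 0.063) and Psmb9 (adjusted p = 0.078) did not. With the alike lymphomas counted once, 3 members passed, and Psmb9 did not (-0.32, adjusted p = 0.113).

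**Figure D2:**
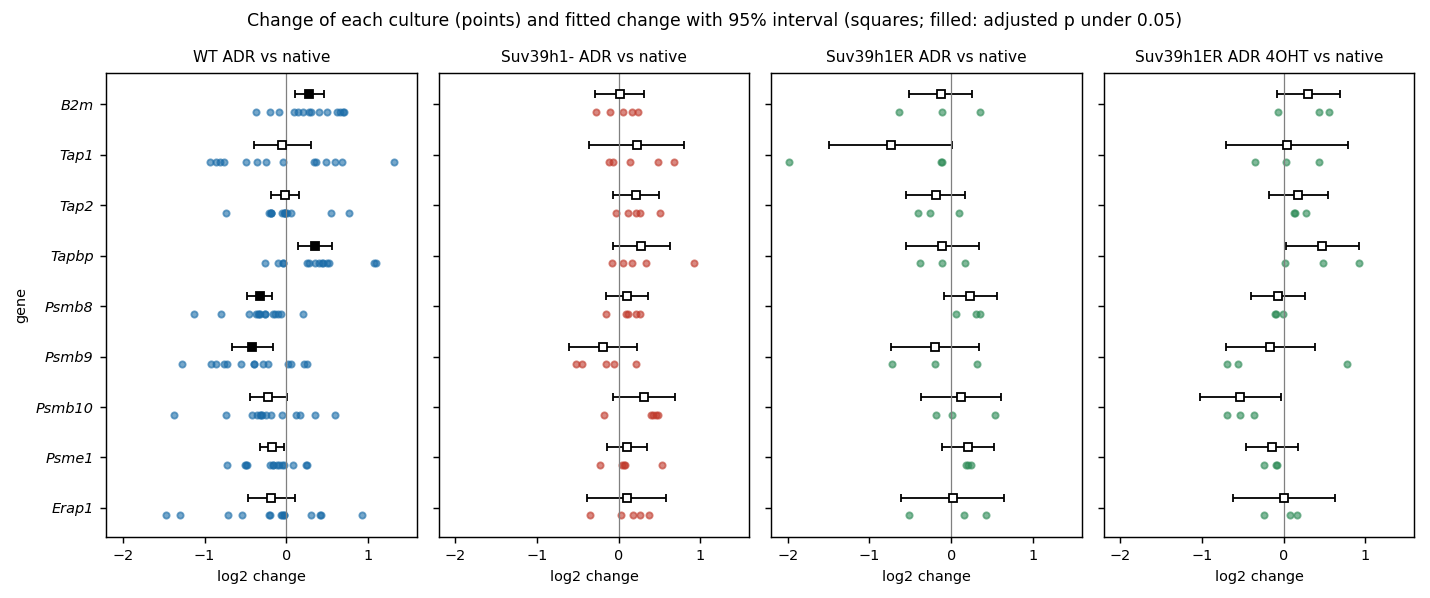
Log2 change from native (x axis) of each member (y axis) in 4 comparisons, with a point per culture and a square for the fitted change with its 95% interval, filled where the adjusted p is under 0.05. Filled squares appear for WT ADR alone, at B2m, Tapbp, Psmb8 and Psmb9, and the number of cultures falls from 14 to 5 and 3 in the other panels.

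Within single lymphomas the changes of B2m and Tapbp mostly exceeded those of Psmb8 and Psmb9. The change of B2m exceeded that of Psmb9 in 14 of 14 WT lymphomas, by 0.70 ± 0.30 (SD), but the genes went in opposite directions in 7 of these, both being higher under ADR in 4 and both lower in 3. The change of Tapbp exceeded that of Psmb8 in 13 of 14, by 0.68 ± 0.39 (SD), and that of B2m exceeded Psmb8 in 12 of 14, by 0.61 ± 0.44 (SD). Tap1 exceeded Psmb9 in 11 of 14, by 0.37 ± 0.43 (SD). The dimmer Tap1 probe set at a mean level of 4.13 changed by -0.41, near the -0.42 of Psmb9. On that probe set the difference was thus lost on average. The remaining ones changed by -0.004 and 0.06, but their mean levels of 2.79 and 2.46 lie below every array median, so they are no check. Over the 11 lymphomas left when the alike ones were counted once, B2m exceeded Psmb9 in 11 of 11 lymphomas, Tapbp exceeded Psmb8 in 11, B2m exceeded Psmb8 in 10 and Tap1 exceeded Psmb9 in 8. These pairs were chosen after the values were seen and are descriptions without a test.

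Some members nevertheless varied together from lymphoma to lymphoma. Over the 14 WT lymphomas, the changes of Psmb10 and Erap1 correlated at r = 0.83, those of Tap1 and Tapbp at 0.81, and those of Tap1 and Psmb9 at 0.79. Psme1 correlated with Erap1 at 0.79. B2m ran opposite to Psmb10 at -0.51 and to Erap1 at -0.46. Of the 36 pairs of members 27 were above 0, with a median r of 0.48. Counting the alike lymphomas once gave 32 of 36 above 0 and a median r of 0.54. The 6 pairs named then lay, in the same order, at 0.82, 0.82, 0.77 and 0.81, and at -0.47 and -0.40 for B2m. The points of each pair share arrays, so these are descriptions. Correlations among other genes were not computed, so the count above 0 and the median r are not a result about the members. Averaged over the 9 members, the change was lowest in lymphoma 403 (-0.75), where 1 member was higher under ADR, and in 5560 (-0.47). It was highest in 2581 (0.39), where 7 members were higher, and in 1570 (0.39).

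The genes whose changes most resembled the mean of the members over the 14 WT lymphomas were Miip (r = 0.93), Pmf1 (0.90), Gast (0.90), Elfn2 (0.88) and Bbc3 (0.88), which encodes the apoptosis inducer Puma. Those most like Tap1 alone were Pikfyve (0.90), a lipid kinase, Scand1 (0.88), Zup1 (0.87), Car2 (0.86), a carbonic anhydrase, and Wdr37 (0.85). Each is the top of a ranking over all other genes, with all 14 lymphomas.

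Around the members, the class I heavy chains H2-K1 and H2-D1 rose in WT ADR, by 0.56 (SE 0.16, adjusted p = 0.0074) and 0.54 (SE 0.16, adjusted p = 0.014). They were the 2 of 9 measured heavy chain genes, of 18 listed, that passed, and the median of the 9 was 0.07. Classical heavy chain genes such as H2-K1 and H2-D1 are closely similar in sequence, so their probe sets may share signal. Among genes that fold or trim class I cargo, 3 of 9 rose and none fell: the chaperone Calr by 0.49 (SE 0.08, adjusted p = 5.5e-05), the disulfide isomerase Pdia3 by 0.32 and the peptidase Nrd1 by 0.28.

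The rest of the proteasome showed more falls than rises. Of the constitutive catalytic subunits, which the inducible ones replace, Psmb7 fell by 0.25 (SE 0.07, adjusted p = 0.012), while Psmb5 (-0.01, adjusted p = 0.98) and Psmb6 (0.05, adjusted p = 0.73) did not pass. Of 14 other 20S subunits and assembly factors 7 fell and 1 rose, with a median of -0.18. The assembly chaperones Psmg2 (-0.64, adjusted p = 0.00012) and Psmg1 (-0.62, adjusted p = 0.0025) had the largest falls, and the subunit Psma4 fell by 0.31 (adjusted p = 0.0019). Of 19 measured genes of the 19S particle and other activators 5 fell and none rose, with a median of -0.06. Among them Psmc6 changed by -0.30 and Psme3, the PA28 gamma activator, by -0.33.

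Regulators and interferon targets went the other way. Of 16 measured regulators 7 rose and 2 fell. Nlrc5 rose by 0.56 (SE 0.19, adjusted p = 0.026), the NF-kB subunit Rela by 0.59 (SE 0.06, adjusted p = 3e-07) and the interferon gamma receptor chain Ifngr2 by 0.84 (adjusted p = 4.4e-05). Rfxap (-0.44) and Rfxank (-0.39), subunits of the RFX complex that binds class I and class II promoters, fell. Irf1, an interferon-induced factor, did not pass at 0.17 (adjusted p = 0.29). Of 21 measured interferon-stimulated genes 18 rose and none fell, with a median of 1.06, beside the member median of -0.17. Ifit1 (2.12), Oasl2 (2.07) and Rtp4 (2.04) were among the largest. Of 9 measured MHC class II genes, which B cells also carry, 2 fell and none rose: H2-Ob (-1.23, adjusted p = 0.0012) and H2-Oa (-0.81, adjusted p = 0.0037), the chains of the peptide exchange modulator H2-O.

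**Figure D3:**
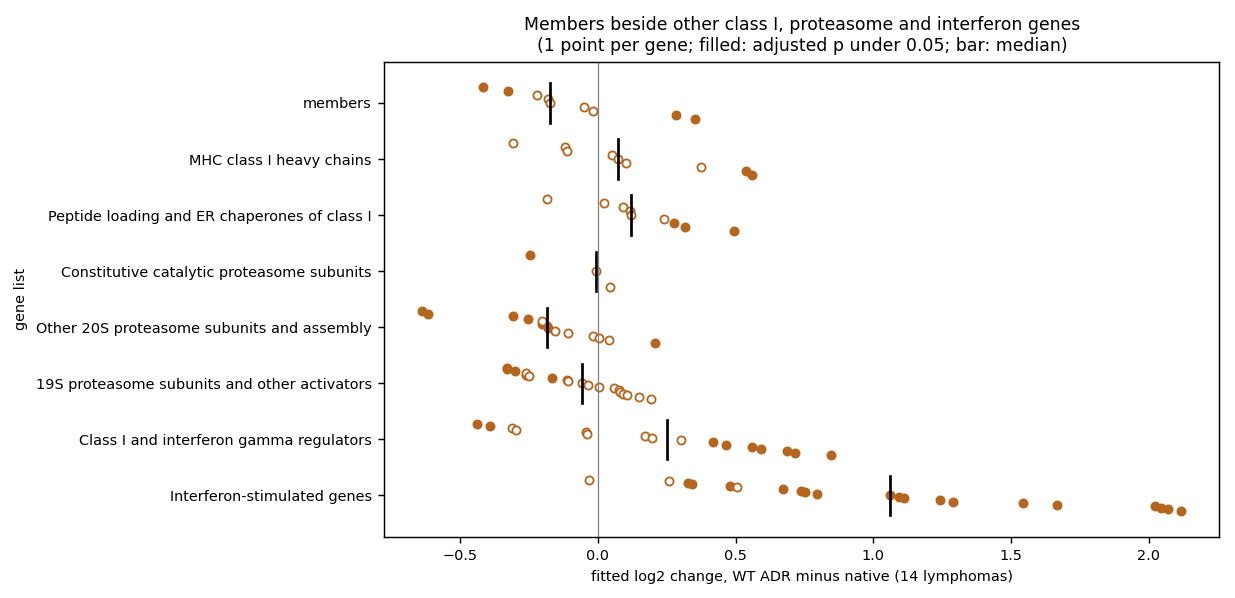
Fitted log2 change in WT ADR against WT native (x axis) for the members and 7 other lists (y axis), with a point per gene, filled at an adjusted p under 0.05, and a bar at the median. The interferon-stimulated genes sit mostly above 0 with a median of 1.06, the other 20S genes mostly below 0 with a median of -0.18, and the members lie on both sides.

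The cultures were grown on fibroblasts, and markers of other cells moved with ADR in WT. Of 11 measured fibroblast markers 10 rose, and their mean change was 1.79 ± 1.24 (SD, n = 14), from 0.01 to 4.14. Array means of these markers ran from 4.09 to 5.33 in WT native and from 4.80 to 8.63 in WT ADR. Of 10 macrophage markers 7 rose, with a mean change of 1.38 ± 0.83 (SD, n = 14) and array means of 5.04 to 8.20 in native and 6.25 to 8.87 in ADR. Array means of T and NK cell markers stayed at 4.12 to 4.46 in WT. Of the 7 B lineage markers 3 fell and none rose. In such mixed samples fewer cells of a type and less RNA per cell cannot be told apart.

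Changes of each member were therefore related, over the 14 WT lymphomas, to changes of Irf1, of Nlrc5 and of the fibroblast marker mean, which made 27 relations with permutation p-values adjusted over them. Of these 6 passed by Pearson and 2 by Spearman correlation. The share of all genes that would pass such relations was not computed, so these counts are not a result about the members. With the alike lymphomas counted once (11 lymphomas, an alternative added after these values were seen), 4 of those 6 passed by Pearson and 1 by Spearman: Psmb10, Erap1 and Psme1 with the fibroblast markers and Tapbp with Irf1, of which Psmb10 by both. The change of Psmb10 was lower where that of the fibroblast markers was higher (r = -0.88, permutation p = 3e-05, adjusted p = 0.00081; rho = -0.82, permutation p = 0.00055, adjusted p = 0.015). Without lymphomas 5560 and 403, the farthest from the median, r was -0.77. Erap1 (r = -0.78, permutation p = 0.0010, adjusted p = 0.013; rho = -0.67, permutation p = 0.011, adjusted p = 0.061) and Psme1 (r = -0.71, permutation p = 0.0047, adjusted p = 0.025; rho = -0.62, permutation p = 0.021, adjusted p = 0.093) passed by Pearson only, at r = -0.49 and -0.47 without these lymphomas. Psmb8 did not pass (r = -0.64, permutation p = 0.013, adjusted p = 0.0505; rho = -0.45, permutation p = 0.11, adjusted p = 0.38), and r was 0.00 without 5560 and 403, so it rests on them. B2m, at r = 0.47 (permutation p = 0.090, adjusted p = 0.24) and rho = 0.53 (permutation p = 0.056, adjusted p = 0.22), and Psmb9, at r = -0.05 (permutation p = 0.85, adjusted p = 0.89) and rho = 0.01 (permutation p = 0.98, adjusted p = 0.98), did not pass. B2m reached r = 0.70 without 5560 and 403.

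The genes of the shared Psmb9 and Tap1 promoter changed with Nlrc5 over all 14 lymphomas. For Psmb9 the relation was r = 0.68 (permutation p = 0.0076, adjusted p = 0.034) and rho = 0.75 (permutation p = 0.0028, adjusted p = 0.038), and r was 0.75 without 5560 and 1570. For Tap1 it was r = 0.75 (permutation p = 0.0020, adjusted p = 0.016) and rho = 0.71 (permutation p = 0.0056, adjusted p = 0.0505), and r was 0.65 without these lymphomas. Neither passed with the alike lymphomas counted once, at r = 0.63 (permutation p = 0.038, adjusted p = 0.145) and rho = 0.61 (permutation p = 0.052, adjusted p = 0.23) for Psmb9 and r = 0.72 (permutation p = 0.011, adjusted p = 0.060) and rho = 0.61 (permutation p = 0.052, adjusted p = 0.23) for Tap1. Tapbp changed with Irf1 at r = 0.75 (permutation p = 0.0023, adjusted p = 0.016) and rho = 0.67 (permutation p = 0.011, adjusted p = 0.061), and r was 0.42 without 1570 and 2581. These relations say that the genes varied together over lymphomas, and the part that cell mixture plays in them was not tested.

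**Figure D4:**
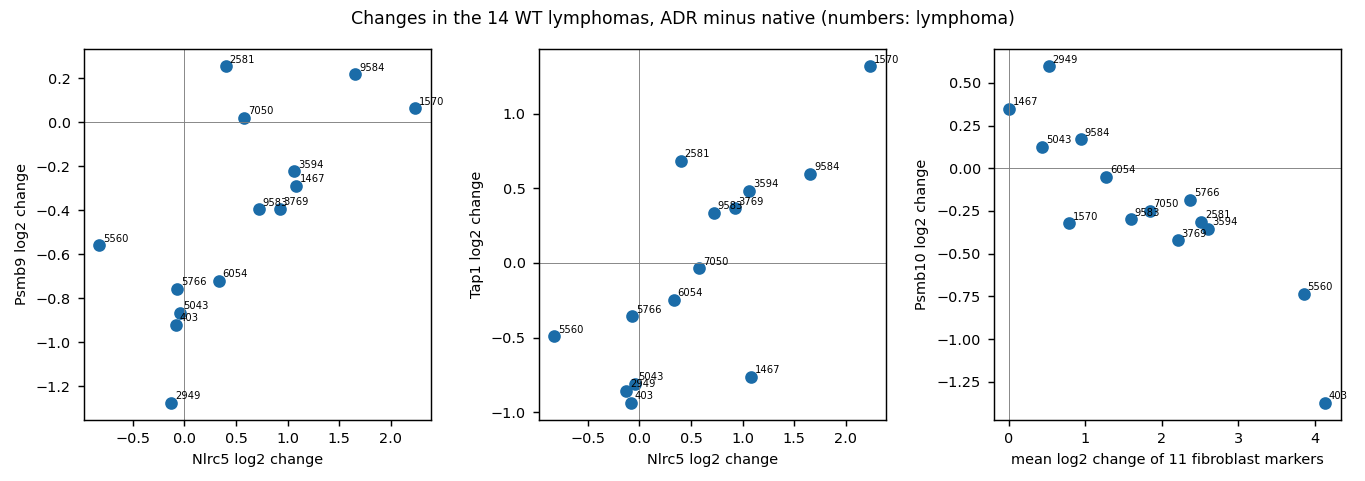
Log2 change from native to ADR in the 14 WT lymphomas for Psmb9 (left) and Tap1 (middle) against Nlrc5, and for Psmb10 (right) against the mean of 11 fibroblast markers, with a numbered point per lymphoma. Psmb9 and Tap1 lie higher where Nlrc5 rose (r = 0.68 and 0.75), and Psmb10 lies lower where fibroblast markers rose (r = -0.88), with 5560 and 403 at the far right.

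In Suv39h1- lymphomas, labelled as non-senescent also after ADR, no member passed, and 2 of all genes (0.011%) did, with 1885 genes, and 0 of the 9 members, at an unadjusted p under 0.05 by limma. The 5 cultures, in the order 5783, 7890, 9250, 1032 and 4936, had B2m at 12.96, 12.78, 12.01, 12.92 and 12.00 in native and at 13.12, 12.67, 12.24, 12.97 and 11.73 under ADR. The groups overlapped almost wholly, and the change was 0.01 (95% interval -0.29 to 0.31). Psmb8, which fell in WT, was at 10.44, 10.60, 10.02, 10.87 and 10.21 in native and at 10.70, 10.45, 10.13, 11.08 and 10.30 under ADR. It was higher in 4 of 5 cultures, with a change of 0.10 (95% interval -0.15 to 0.36). Psmb10 was at 8.99, 9.81, 9.17, 8.80 and 8.96 in native and at 9.47, 9.63, 9.63, 9.19 and 9.38 under ADR, again higher in 4 of 5. Its change was 0.31 (SE 0.19, adjusted p = 0.59). The remaining members changed by -0.20 (Psmb9) to 0.28 (Tapbp), also without passing. Fibroblast markers changed by 0.12 ± 0.07 (SD, n = 5) in these lymphomas.

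The difference between the WT and the Suv39h1- response was tested directly. No member passed, beside 0.341% of all genes, although 7 of 9 differences were negative. The median difference was -0.27 over the members and 0.05 over all genes, and the share of negative differences over all genes was not computed. At an unadjusted p under 0.05 by limma were 2 of 9 members, Psmb8 and Psmb10, beside 3424 of all genes (18.8%). The Psmb8 response was 0.43 lower in WT (SE 0.14, adjusted p = 0.13) and the Psmb10 response 0.53 lower (SE 0.22, adjusted p = 0.19). For B2m the difference was 0.27 (95% interval -0.08 to 0.62), and for Tapbp it was 0.07 (95% interval -0.33 to 0.48). With the alike lymphomas counted once no member passed either. The fibroblast markers changed by 1.79 on average in WT and by 0.12 in Suv39h1-, and their part in these differences was not tested.

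Genotypes were then compared within a treatment. In native cells no member passed, beside 1.09% of all genes, and 7 of 9 members had a higher mean in WT. The median difference was 0.30 over the members and -0.02 over all genes, and the share of higher means over all genes was not computed. Tapbp and Psmb8 were the 2 of 9 members at an unadjusted p under 0.05 by limma, beside 1735 of all genes (9.54%). Tapbp had the smallest p, at 9.81 ± 0.21 (SD, n = 14) in WT and 9.38 ± 0.42 (SD, n = 5) in Suv39h1-, a difference of 0.43 (SE 0.14, adjusted p = 0.20 by limma). The Suv39h1- native values of Tapbp were 9.77, 9.82, 8.91, 9.41 and 9.02 in the order above, and 3 of these 5 lay below every WT array. The dimmer Tapbp probe set gave a larger difference of 1.37 (adjusted p over all probe sets = 0.00095 by limma) and the mean of both 0.90 (adjusted p = 0.0070 by limma), so the Tapbp call turned on the probe set. The 3' minus 5' difference, a sign of RNA quality, was 0.077 ± 0.055 (SD, n = 14) in WT native and 0.25 ± 0.076 (SD, n = 5) in Suv39h1- native for Gapdh, and 0.59 ± 0.14 (SD, n = 14) and 0.85 ± 0.14 (SD, n = 5) for Actb. Its part in these differences was not tested.

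Under ADR 2 of 9 members passed, in opposite directions, beside 12.6% of all genes (6.3% higher and 6.3% lower in WT). B2m was at 13.11 ± 0.20 (SD, n = 14) in WT and 12.55 ± 0.57 (SD, n = 5) in Suv39h1-, a difference of 0.57 (SE 0.16, adjusted p = 0.030 by limma). Of the Suv39h1- arrays 3 of 5 were below every WT array, and 7 of 14 WT arrays were above every Suv39h1- one. The call was lost without Suv39h1- lymphoma 7890 (adjusted p = 0.053 by limma), 9250 (adjusted p = 0.099 by limma) or 4936 (adjusted p = 0.11 by limma). Psmb10 was at 8.89 ± 0.29 (SD, n = 14) in WT and 9.46 ± 0.18 (SD, n = 5) in Suv39h1-, a difference of -0.57 (SE 0.14, adjusted p = 0.013 by limma). Here 12 of 14 WT arrays lay below every Suv39h1- array, and 4 of 5 Suv39h1- arrays above every WT one. With the alike lymphomas counted once neither passed (B2m 0.52, adjusted p = 0.14; Psmb10 -0.53, adjusted p = 0.095, both by limma). Array means of fibroblast markers ran from 4.80 to 8.63 in WT ADR and from 4.36 to 6.05 in Suv39h1- ADR.

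Tapbp under ADR differed by 0.50 (SE 0.17, adjusted p = 0.063 by limma) and passed without WT lymphoma 2949 (adjusted p = 0.036 by limma) or 5043 (adjusted p = 0.044 by limma). The dimmer Tapbp probe set gave 1.25 (adjusted p over all probe sets = 0.0046 by limma). The mean of both gave 0.88 (adjusted p = 0.0047 by limma). Tapbp also passed with quantile normalization (adjusted p = 0.049 by limma) and with only genes above the median level (adjusted p = 0.045 by limma). It was thus called in 5 of 24 alternatives of the fit. The other 6 members ran from -0.36 (Erap1) to 0.27 (Tap1) without passing. Among related genes, 3 of 9 heavy chain genes were higher in WT and none lower: H2-K1 (1.06, adjusted p = 0.016 by limma), H2-D1 (1.03, adjusted p = 0.019 by limma) and the class I-like Mr1 (0.88, adjusted p = 0.0077 by limma). Of 9 folding and trimming genes 3 were higher, Calr (0.61), Nrd1 (0.47) and Pdia3 (0.38), and the aminopeptidase Lap3 was lower (-0.43). The constitutive subunit Psmb7 was higher in WT both in native cells (1.45, adjusted p = 3.9e-06 by limma) and under ADR (1.26, adjusted p = 1.9e-07 by limma), whereas Psmb5 and Psmb6 did not pass in either. The 3' minus 5' difference of Gapdh was 0.18 ± 0.23 (SD, n = 14) in WT ADR and 0.33 ± 0.08 (SD, n = 5) in Suv39h1- ADR. The highest WT ADR array was at 0.91, beside a WT ADR median of 0.11. For Actb the values were 0.56 ± 0.20 (SD, n = 14) in WT ADR and 0.87 ± 0.20 (SD, n = 5) in Suv39h1- ADR. The part of RNA quality in these genotype differences was not tested.

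In the Suv39h1ER cultures, which have 3 lymphomas per treatment, the question was whether members differed when 4OHT was added to activate Suv39h1ER. All arrays with 4OHT also had Suv39h1ER and ADR, so effects of 4OHT itself and of Suv39h1ER activation cannot be told apart. No member passed in any comparison, where p-values and intervals rest on the spread pooled over all genotypes. Under ADR with 4OHT, B2m, Tap1, Tap2 and Tapbp had higher and Psmb8, Psmb10 and Psme1 lower means than under ADR alone. Psmb9 and Erap1 differed by 0.04 and -0.02. In ADR 4OHT against ADR 0.143% of all genes passed. At an unadjusted p under 0.05 by limma were 6 of the 9 members (B2m, Tap1, Tap2, Tapbp, Psmb10 and Psme1) and 2268 of all genes (12.5%). By a looser measure, 5 of 9 members had groups that did not overlap, 3 higher and 2 lower, beside 20.2% of all genes (8.55% higher and 11.7% lower). The 3' minus 5' difference of Actb did not overlap between these groups either, at 0.47 to 0.79 under ADR and 0.88 to 0.92 under ADR with 4OHT, and its part in the member differences was not tested.

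In the order SuvER-4146, SuvER-4936 and SuvER-5043, B2m was at 12.37, 12.85 and 12.23 in native, at 12.26, 12.21 and 12.59 under ADR, and at 12.80, 12.78 and 12.79 under ADR with 4OHT. The last group lay above the ADR group and was the tightest. The difference between both was 0.43 (95% interval 0.05 to 0.82, adjusted p = 0.34 by limma). Tapbp was at 9.26, 9.59 and 9.40, then 9.42, 9.20 and 9.29, then 10.18, 9.60 and 9.88. It was higher in each culture under ADR with 4OHT than under ADR, and those groups did not overlap, with a difference of 0.58 (95% interval 0.14 to 1.03, adjusted p = 0.25 by limma). Tap2 was at 8.06, 8.44 and 8.34, then 8.15, 8.03 and 8.07, then 8.20, 8.57 and 8.61, a difference of 0.37 (adjusted p = 0.39 by limma) between the last pair of groups, which did not overlap.

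Psmb8 was at 10.35, 10.36 and 10.62 in native, at 10.70, 10.66 and 10.67 under ADR and at 10.35, 10.26 and 10.51 under ADR with 4OHT. The ADR values were above all others, and the difference of ADR with 4OHT from ADR was -0.30 (95% interval -0.63 to 0.02, adjusted p = 0.46 by limma). Psme1 was at 10.48, 10.39 and 10.68, then 10.69, 10.63 and 10.86, then 10.24, 10.31 and 10.58. The last group lay below the ADR group, by 0.35 on average (adjusted p = 0.35 by limma). Psmb10 was at 9.27, 9.13 and 9.92, then 9.81, 9.15 and 9.74, then 8.58, 8.77 and 9.39, lower in 3 of 3 cultures although the groups overlapped, with a difference of -0.65 (95% interval -1.15 to -0.16, adjusted p = 0.25 by limma).

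Tap1 differed most by culture. It was at 8.16, 9.15 and 8.94 in native, at 8.04, 7.17 and 8.82 under ADR and at 8.59, 8.80 and 8.98 under ADR with 4OHT. The change from native to ADR was -1.98 in SuvER-4936, and -0.12 and -0.13 in the other cultures. The mean change was -0.74 (adjusted p = 0.41 by limma) from native to ADR and 0.78 (adjusted p = 0.38 by limma) from ADR to ADR with 4OHT. Psmb9 (0.04) and Erap1 (-0.02) had the smallest differences from ADR to ADR with 4OHT, and their cultures did not move in 1 direction.

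Against native, ADR alone left 1 member with groups that did not overlap, Psmb8, which was higher (change 0.24, adjusted p = 0.59 by limma), beside 18.9% of all genes. By the adjusted test 0.126% of all genes passed there, and 0 members had an unadjusted p under 0.05, beside 2240 of all genes (12.3%). ADR with 4OHT against native left 1, Tapbp, which was higher (change 0.47, adjusted p = 0.27 by limma), beside 22.5% of all genes, while 2.95% of genes passed the adjusted test and 2 members, Tapbp and Psmb10, had an unadjusted p under 0.05, beside 2960 of all genes (16.3%). Psmb10 changed there by -0.53 (adjusted p = 0.26 by limma), lower in 3 of 3 cultures. Fibroblast markers changed by 1.20 ± 0.76 (SD, n = 3) from native to ADR and by 0.35 ± 0.42 (SD, n = 3) from native to ADR with 4OHT. Macrophage markers changed by 1.69 ± 1.36 (SD, n = 3) and 1.25 ± 0.23 (SD, n = 3), and both lists were higher in 3 of 3 cultures in each comparison. Their part in the member changes was not tested.

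In the comparison of ADR with 4OHT to ADR, the constitutive subunits Psmb5 (-0.79, adjusted p = 0.11), Psmb6 (-0.47, adjusted p = 0.21) and Psmb7 (-0.71, adjusted p = 0.064) had negative changes by limma as well, and 0 of 14 other 20S genes had a change above 0, with a median of -0.26 beside -0.02 over all genes. None of these passed. Nlrc5 differed by 1.30 (SE 0.41, adjusted p = 0.17 by limma). The fibroblast marker mean was 0.84 ± 0.42 (SD, n = 3) lower under ADR with 4OHT than under ADR, in 3 of 3 cultures. Psmb10 and the fibroblast markers were thus both lower on average here, while over WT lymphomas the change of Psmb10 was lower where that of the markers was higher. A mean shift over 3 cultures and a relation over 14 lymphomas are unlike measures. The part of cell mixture in either was not tested.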

How the data were processed

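Log2 expression levels per probe set were deposited by the authors, and per the submitters' processing notes they come from RMA and oligo in R 3.5.0. RNA was hybridised to Affymetrix arrays, and batch steps are not given in the sources used here. Of 45101 probe sets, 34958 carried 1 symbol in the platform annotation, 932 several and 9211 none. Symbols of 34754 were updated by Entrez number to RefSeq GRCm38.p6. Each gene was its brightest probe set over the 47 arrays (18194 genes), with no filter on dim genes.

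Treatments were tested with limma 3.58.1 in R 4.3.3 with data.table (version 1.17.8) in 1 fit of 47 arrays with the 22 cultures as blocks and 4 treatment terms, and genotypes over 19 arrays per treatment. Tests were two-sided with Benjamini-Hochberg adjustment and a threshold of 0.05. The series design text describes matched pairs. As a check, deviations of a culture's arrays from their group means correlated above 0.1 in 10 of 14 WT, 5 of 5 Suv39h1- and 2 of 9 Suv39h1ER pairs of arrays. Relations used 100000 resamples. They covered the 9 measured members and 3 partners, and 1 planned partner is not reported here. The fit was tested on simulated data. Members and lists were chosen with earlier results of these data known. Named were all members, Psmb5, Psmb6, Psmb7, Nlrc5 and Irf1, up to 3 genes with the smallest p of a list described, and the 5 most alike by Pearson r. Psme3, Rfxank, Rtp4 and Lap3 were named after their values were seen. Alternatives were the mean of probe sets, single probe sets, quantile normalization, a filter at the median level, a trended robust fit, no block, own arrays, alike lymphomas once and leaving out each lymphoma. Probe sets of the targeted gene Suv39h1 were not analysed here, so its labels were not checked by it.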

Additional observations from a re-analysis of the deposited data

Results flagged for a closer look

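Of 27 sets of 4 to 10 values, that is the Suv39h1- levels and changes of the 9 members, 2 held a lymphoma far from the rest, and chance gives about 1 in 20. Tapbp in Suv39h1- lymphoma 4936 under ADR was at 9.07, while the other 4 arrays lay between 9.74 and 9.93. The change of Psmb10 in Suv39h1- lymphoma 7890 was -0.19, while the other 4 lay between 0.39 and 0.48.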

How the results depend on the processing

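The number of lymphomas limits the precision, and signal over background was not assessed. Psmb8 in WT kept its call under all 21 alternatives of the fit, at -0.37 to -0.25, but not in its dimmer probe set. B2m was called in 20 of 21 and lost without the replicate block, Tapbp in 20 and lost with the mean of probe sets, and Psmb9 in 19. The reversed value was the dimmer Tapbp probe set in WT, at -0.0013. Where a cause is not named, the cause was not tested.

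For WT ADR against native, 2 members passed without the replicate block, and 4 to 6 when a lymphoma was left out. For WT against Suv39h1- under ADR, none passed with alike lymphomas counted once, and 1 to 3 when a lymphoma was left out. With the mean of probe sets, quantile normalization or the filter at the median level 3 passed, Tapbp being added to B2m and Psmb10. For the native comparison 1 passed with the mean of probe sets. In the other 5 comparisons no member passed under any alternative run. Of the relations over WT lymphomas, 4 passed by Pearson with alike lymphomas counted once (6 as reported).

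Counts over all genes moved more. Quantile normalization gave 35 for Suv39h1ER ADR against native (23 as reported), and turned the split under ADR between genotypes from 1146 higher and 1147 lower to 851 and 1275. The filter at the median level gave 0 for Suv39h1- ADR (2 as reported), 43 for Suv39h1ER ADR 4OHT against ADR (26) and 122 for the difference of responses (62). The trended fit gave 12, 7 and 28 for these. Without the replicate block, the paired counts became 11 for Suv39h1- ADR, 2 for Suv39h1ER ADR, 267 for Suv39h1ER ADR 4OHT against native (537 as reported), 16 against ADR and 13 for the difference. With alike lymphomas once they were 0 for Suv39h1- ADR, 0 for the difference, 319 and 4 for the 4OHT comparisons, 91 for native genotypes (198) and 604 for ADR genotypes (2293). With only the arrays of the genotypes compared they were 0 for Suv39h1- ADR, 2 for Suv39h1ER ADR, 12 and 0 for the 4OHT comparisons and 40 for the difference. Leaving out a lymphoma gave 1227 to 3389 under ADR between genotypes, 138 to 316 in native, 0 to 12 for Suv39h1- ADR, 4 to 109 for Suv39h1ER ADR, 90 to 326 and 1 to 56 for the 4OHT comparisons and 0 to 258 for the difference. The alternatives that leave out arrays use fewer samples.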
